A study of Homo sapiens with 15 samples.

Results

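The 10 genes described here are BCL2 family apoptosis regulators: the anti-apoptotic BCL2, BCL2L1 and MCL1, the pore-forming effectors BAX and BAK1, and the BH3-only genes BBC3, PMAIP1, BCL2L11, BID and HRK. They were taken as a list of symbols, and all 10 were found in both deposited count tables, among 62703 genes listed for HEK293T and 35595 for HuCCT1. RNA-seq of total RNA depleted of ribosomal RNA gave 15 libraries. HEK293T, an embryonic kidney line that carries SV40 large T antigen, was sequenced as libraries labelled SNRPD2KO, PUS7KO and Ctrl, and HuCCT1, a bile duct cancer line, as libraries labelled SNRPD2KO and Ctrl, with 3 libraries in each of the 5 groups. The study asked how SNRPD2, which encodes the spliceosome core protein SmD2, and PUS7, a pseudouridine synthase, act on RNA, and the knockouts were made with CRISPR-Cas9. What the Ctrl cells carry, and whether a knockout is 1 clone or a pool, is not given in the sources used here. The labels do not say that replicates came from separate cultures, so the p-values measure only the spread between these libraries, which may be technical.

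BCL2 family proteins decide whether the outer membrane of the mitochondrion stays closed. BCL2, BCL-XL (from BCL2L1) and MCL1 hold BAX and BAK in check, BH3-only proteins such as PUMA (BBC3), NOXA (PMAIP1), BIM (BCL2L11), BID and Harakiri (HRK) bind and relieve that hold, and freed BAX and BAK open pores that release cytochrome c and start the caspases. BCL2L1, MCL1 and BCL2L11 are also known for alternative splicing into forms of different or opposite activity, which counts per gene cannot separate. Counts of RNA say nothing of protein level or of cell death.

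Promoter sequences are shown for 3 members whose changes set the comparisons apart: BAX, which rose in SNRPD2KO libraries of both lines, HRK, with the largest change of the 10 genes in HEK293T, and PMAIP1, which differed between SNRPD2KO and PUS7KO. RefSeq promoter windows (GRCh38.p14) were matched by symbol for 9 of the 10 members, in 14 windows, and MCL1 had none. The 250 bases before each start site were searched on both strands for the E-box CACGTG, for TGACGT (reverse complement ACGTCA), the core of a cAMP response element, and for TGATGNAA (reverse complement TTNCATCA), the core of the C/EBP-ATF element. The letters can overlap other motifs and a match is a description of sequence alone. Capitals mark the matches, and each sequence runs 5′ to 3′ on the strand of the gene. BAX lies on the plus strand of chromosome 19, and its stretch ends where the gene begins in the count table, which leaves off the last 60 bases before the RefSeq start site (chr19:48954625-48954814). PMAIP1 is on the plus strand (chr18:59899746-59899995) and HRK on the minus strand (chr12:116881442-116881691).
BAX promoter: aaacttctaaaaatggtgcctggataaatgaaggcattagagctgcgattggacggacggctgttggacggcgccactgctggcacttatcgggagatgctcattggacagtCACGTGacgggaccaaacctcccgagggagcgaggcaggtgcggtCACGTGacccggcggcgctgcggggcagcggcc
PMAIP1 promoter: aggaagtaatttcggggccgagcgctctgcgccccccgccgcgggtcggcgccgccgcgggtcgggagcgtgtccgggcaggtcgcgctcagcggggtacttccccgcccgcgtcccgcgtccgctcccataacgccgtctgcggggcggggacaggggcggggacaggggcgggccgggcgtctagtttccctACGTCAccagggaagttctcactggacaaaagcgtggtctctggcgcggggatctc
HRK promoter: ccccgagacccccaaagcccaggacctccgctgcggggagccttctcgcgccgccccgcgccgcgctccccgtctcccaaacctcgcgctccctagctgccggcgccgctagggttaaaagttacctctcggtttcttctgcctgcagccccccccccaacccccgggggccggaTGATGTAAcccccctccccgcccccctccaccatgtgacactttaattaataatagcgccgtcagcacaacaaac
The full BAX window held 4 E-boxes, starting at positions -138, -93, -45 and -14 from the RefSeq start site, the first pair of which are shown. At least 1 E-box was found in 6.34% of all 35116 windows of this length in the table, and at least 4 in 0.0142% of them (5 windows). The cut of 4 is the number in the BAX window, which is itself among the 5. The PMAIP1 window held ACGTCA at position -56, as did 7.1% of all windows in one or the other orientation, and the HRK window held TGATGTAA at position -75, a motif core in 3.14% of windows. Among the 9 members with a window, 3 had an E-box (BAX, BBC3 and BID), 1 had the cAMP element core and 1 had the C/EBP-ATF core. These counts are of genes, some with several windows, so the shares above, which are of windows, are no measure for them. The E-box of BID is the same site seen in overlapping windows.

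Total counts ran from 7944276 to 11270267 in the HEK293T libraries and from 13776166 to 16795618 in HuCCT1, so that 3 counts equalled 0.266 to 0.378 CPM (counts per 1000000 counts of a library) in HEK293T and 0.179 to 0.218 in HuCCT1. Small noncoding RNAs took 28.2% to 35.7% of counts in HEK293T and 2.19% to 4.11% in HuCCT1. The HEK293T Ctrl libraries had counts on 29551 to 30073 genes, against 24947 to 26998 in SNRPD2KO and 26626 to 27460 in PUS7KO, and the part of this difference in the results was not tested. All 8 biliary markers reached 5 CPM in HuCCT1, while in HEK293T 3 of them did (KRT8, KRT18 and SOX9) and KRT7, KRT19 and MUC1 stayed under 1 CPM. Of 6 markers listed for an embryonic kidney line with neural-like features, 5 reached 5 CPM in HEK293T (NEFL, NEFM, LIN28B, VIM and NES). PAX2 stayed under 1 CPM there, and in HuCCT1 VIM alone reached 5 CPM. Markers of blood, endothelium, fibroblast and hepatocyte summed to between 5.11 and 6.57 CPM in HEK293T, with none of 10 at a mean of 5 CPM, and in HuCCT1 to between 10.6 and 11.6 CPM in Ctrl and between 17.1 and 18.6 CPM in SNRPD2KO, where COL1A1 alone reached 5 CPM (means 9.05 and 16.3), and its part in the results was not tested. SNRPD2 RNA was higher, not lower, in the libraries labelled SNRPD2KO, by a log2 fold change of 0.62 ± 0.10 (SE) in HEK293T (edgeR adjusted p = 4.9e-05) and of 0.90 ± 0.07 in HuCCT1 (edgeR adjusted p = 1.8e-06). It was also higher in PUS7KO, by 0.52 ± 0.10 (edgeR adjusted p = 0.00034), while PUS7 was lower there by -0.72 ± 0.11 (edgeR adjusted p = 6.7e-05). Directions below are therefore those of the libraries labelled SNRPD2KO, and where in SNRPD2 the edit lies is not given in the sources used here.

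Levels were first ordered within each group, as CPM per kilobase of merged exons, the scale on which genes of different length can be set side by side. In HEK293T Ctrl, MCL1 led at 40.7 CPM per kilobase, which was 31.7% of the summed level of the 10 genes. PMAIP1 (30.1) and BAK1 (28.8) followed with ranges that overlapped, then BAX (11.9), BID (7.41) and BBC3 (4.50), each apart from its neighbour. BCL2L1 (2.07) and BCL2L11 (1.56) overlapped, and HRK (1.08) and BCL2 (0.691) were lowest. Under PUS7KO the lead passed to PMAIP1, at 41.65 CPM per kilobase and 32.3% of the sum, above MCL1 at 30.75 with no overlap. In SNRPD2KO the ranges of MCL1 (31.8), BAK1 (31.55) and PMAIP1 (27.5) overlapped from each to the next. HRK moved from the ninth place in Ctrl to the seventh in both knockouts. In HuCCT1 Ctrl, BCL2L1 stood far above the rest at 236.7 CPM per kilobase, 57.5% of the sum, followed by MCL1 at 84.05 and 20.4%. BAK1 (24.8), BID (22.5), PMAIP1 (21.1) and BAX (17.0) came next, of which only BID and PMAIP1 overlapped. BCL2L11 (3.37), BBC3 (1.64), HRK (0.168) and BCL2 (0.0823) were low in this line. In HuCCT1 SNRPD2KO the share of BCL2L1 was 49.2% and that of MCL1 25.3%, and BAX, at 24.0 CPM per kilobase, had moved from the sixth place to the third.

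**Figure D1:**
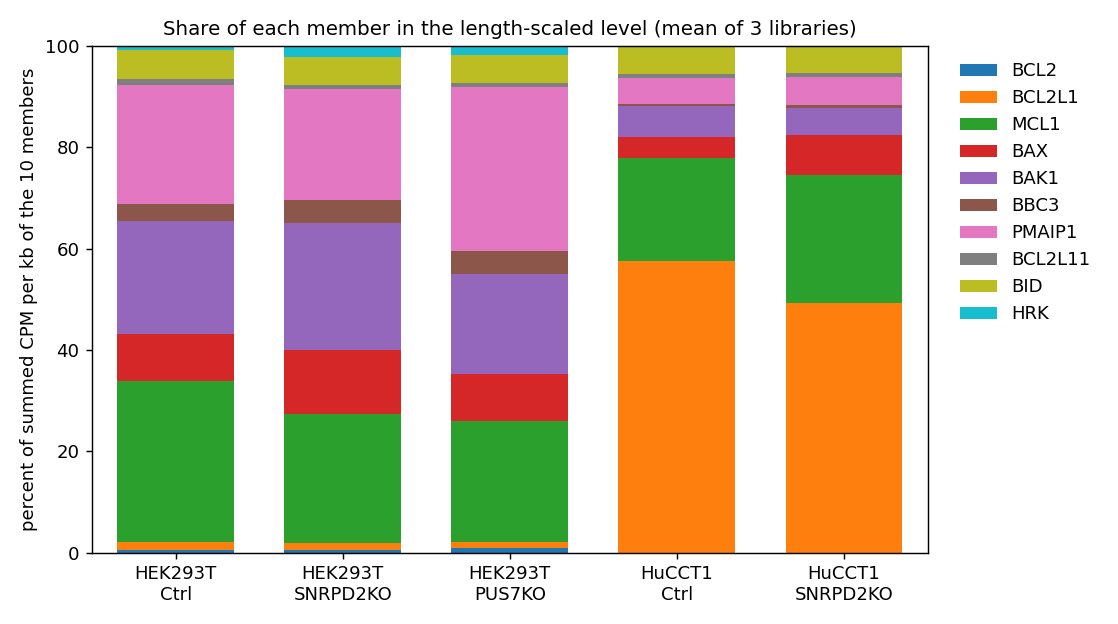
Stacked bars of each member's percentage of the summed CPM per kilobase of the 10 genes, as the mean of 3 libraries in each of 5 groups. BCL2L1 fills 57.5% of the HuCCT1 Ctrl bar and 1.62% of the HEK293T Ctrl bar.

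Among the libraries labelled SNRPD2KO in HEK293T, the pro-apoptotic HRK and BAX rose, while the anti-apoptotic MCL1 and the BH3-only BCL2L11 fell. These are 4 of the 10 members, 2 in each direction, beside 53.3% of the 15882 genes tested that changed, 26.9% up and 26.4% down, a share not above that of all genes. Their median log2 fold change was -0.03, beside 0.02 over all genes tested. A gene counts as changed at an adjusted p under 0.05 by edgeR's quasi-likelihood test with Benjamini-Hochberg adjustment over all genes tested. In 4 members the groups did not overlap, beside 59.5% of all genes. With the trend of fold changes with transcript GC content removed, 5 members passed, 1 up and 4 down: HRK, MCL1 and BCL2L11 as before, BAX no longer, and BCL2L1 and BID in addition. Under PUS7KO, HRK, PMAIP1 and BCL2 rose and MCL1 and BCL2L11 fell, 5 of 10 members beside 49.4% of all genes (25.6% up and 23.8% down), with a median of -0.03 beside 0.01. The groups did not overlap in 5 members, beside 57.2% of genes. The 2 comparisons share the Ctrl libraries, so likeness between them is not independent.

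HRK was the member with the largest change in HEK293T. It read 7.93, 6.62 and 7.61 CPM in Ctrl, against 20.3, 18.3 and 17.2 in SNRPD2KO and 15.6, 16.8 and 15.7 in PUS7KO. Every knockout library lay above every Ctrl library. Its log2 fold change was 1.33 ± 0.13 (SE) in SNRPD2KO (edgeR adjusted p = 5.5e-07), a 2.51-fold rise, and 1.12 ± 0.13 in PUS7KO (edgeR adjusted p = 4.8e-06), a 2.17-fold rise. Harakiri is a BH3-only protein known mainly from neurons that lose trophic support.

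MCL1, a short-lived anti-apoptotic protein on which many cultured lines depend, had the most abundant RNA of the 10 in HEK293T Ctrl. It read 169.7, 185.1 and 178.9 CPM in Ctrl, 133.8, 137.4 and 146.2 in SNRPD2KO and 129.3, 142.1 and 131.9 in PUS7KO. All 6 knockout libraries lay below all 3 Ctrl libraries. The log2 fold change was -0.35 ± 0.08 (SE) in SNRPD2KO (edgeR adjusted p = 0.0011) and -0.40 ± 0.08 in PUS7KO (edgeR adjusted p = 0.00043).

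BCL2, the founding anti-apoptotic member, was the lowest of the 10 per kilobase in HEK293T Ctrl. Its values were 8.79, 8.68 and 6.93 CPM in Ctrl, 5.90, 8.25 and 10.7 in SNRPD2KO, and 11.8, 15.3 and 14.15 in PUS7KO. The PUS7KO libraries stood above the others, and the SNRPD2KO libraries spread around Ctrl on both sides. BCL2 rose in PUS7KO by a log2 fold change of 0.76 ± 0.19 (SE; edgeR adjusted p = 0.0035), whereas the value in SNRPD2KO was 0.04 ± 0.20 (edgeR adjusted p = 0.89; 95% interval -0.39 to 0.46). BCL2L1 read 5.68, 6.05 and 8.865 CPM in Ctrl, 5.79, 5.39 and 5.55 in SNRPD2KO, and 6.11, 4.93 and 5.00 in PUS7KO. The groups overlapped and the third Ctrl library was the highest. The log2 fold change of BCL2L1 was -0.30 ± 0.20 in SNRPD2KO and -0.36 ± 0.20 in PUS7KO, and neither passed (edgeR adjusted p = 0.24 and 0.16). With the GC trend removed the value in SNRPD2KO was -0.52 and passed (edgeR adjusted p = 0.0448), and without Ctrl replicate 3 the values were -0.06 and -0.13.

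BAX and BAK1 encode the effectors that form the pore. BAX read 30.1, 29 and 33.2 CPM in Ctrl, 42.6, 46.0 and 35.8 in SNRPD2KO, and 31.1, 28.0 and 33.2 in PUS7KO. The SNRPD2KO libraries were all above Ctrl, the third of them by the smallest margin, and PUS7KO lay on Ctrl. The log2 fold change was 0.43 ± 0.11 (SE) in SNRPD2KO (edgeR adjusted p = 0.0038) and -0.0022 ± 0.11 in PUS7KO (edgeR adjusted p = 0.99). Fold changes in SNRPD2KO moved with the GC content of transcripts. The Spearman rho was 0.35 across the genes with a GC value, 97% of the 15882 tested. Genes are not independent replicates. BAX transcripts have a median GC of 60.6% beside 49.3% over the genes tested, and with the GC trend removed the change of BAX was 0.12 and did not pass (edgeR adjusted p = 0.30). BAK1 read 74.0, 63.25 and 53.8 CPM in Ctrl, 75.0, 75.9 and 58.4 in SNRPD2KO, and 60.4, 51.6 and 56.5 in PUS7KO. Its groups overlapped, with log2 fold changes of 0.13 ± 0.12 and -0.18 ± 0.12 (edgeR adjusted p = 0.38 and 0.22). With the GC trend removed these were -0.14, which did not pass, and -0.31, which passed (edgeR adjusted p = 0.0205).

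The other BH3-only genes moved less than HRK. PMAIP1 read 74.0, 67.1 and 60.9 CPM in Ctrl, 57.3, 58.7 and 68.3 in SNRPD2KO, and 89.5, 95.7 and 94.1 in PUS7KO. Only PUS7KO stood apart, with a log2 fold change of 0.47 ± 0.09 (SE; edgeR adjusted p = 0.00055). The value in SNRPD2KO was -0.13 ± 0.09 (edgeR adjusted p = 0.26). BCL2L11, which encodes BIM, a potent activator of BAX and BAK, read 9.33, 11.9 and 9.89 CPM in Ctrl, 8.05, 4.95 and 6.23 in SNRPD2KO, and 5.73, 7.26 and 7.805 in PUS7KO. Both knockouts lay wholly below Ctrl. The log2 fold changes were -0.69 ± 0.19 in SNRPD2KO (edgeR adjusted p = 0.0066) and -0.58 ± 0.19 in PUS7KO (edgeR adjusted p = 0.019). The call in PUS7KO was lost without PUS7KO replicate 1 (-0.44, edgeR adjusted p = 0.101) or without Ctrl replicate 2 (-0.46, edgeR adjusted p = 0.0974).

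BCL2L11 overlaps MIR4435-2HG, a long noncoding RNA gene on the opposite strand, which held 1123 counts to 693 of BCL2L11 in HEK293T and 5505 to 1756 in HuCCT1. MIR4435-2HG fell as well, by -0.60 in SNRPD2KO, -0.46 in PUS7KO and -0.44 in HuCCT1 SNRPD2KO on the log2 scale (edgeR adjusted p = 0.0011, 0.0078 and 0.00014). The kit is stranded, but whether the counting used strand is not given in the sources used here. The overlap is of whole gene spans and the counts are of whole genes. Whether their exons overlap was not tested, so how far reads of the 2 genes mix is not known. BBC3 read 14.5, 12.3 and 16.1 CPM in Ctrl, 22.1, 15.6 and 15.4 in SNRPD2KO, and 20.4, 15.4 and 21.1 in PUS7KO. All 6 knockout libraries were above the Ctrl mean of 14.3 CPM and 3 of them above every Ctrl library, so the groups overlapped. The log2 fold changes of BBC3 were 0.30 ± 0.17 and 0.40 ± 0.17 (edgeR adjusted p = 0.14 and 0.054). The PUS7KO value passed without PUS7KO replicate 2 (0.55, edgeR adjusted p = 0.0127), without Ctrl replicate 3 (0.50, edgeR adjusted p = 0.0388) and with no filter on low counts (0.49, edgeR adjusted p = 0.0048), a setting in which the SNRPD2KO value passed too (0.38, edgeR adjusted p = 0.041). With the GC trend removed the SNRPD2KO value was -0.06. BID, which caspase-8 cleaves to link death receptors to mitochondria, ran from 28.7 to 35.9 CPM over all 9 HEK293T libraries, with group means of 32.9 ± 3.41 (SD, n = 3) in Ctrl, 31.05 ± 3.26 in SNRPD2KO and 31.45 ± 1.12 in PUS7KO. Its log2 fold changes were -0.09 and -0.07 (edgeR adjusted p = 0.51 and 0.63), and with the GC trend removed the value in SNRPD2KO was -0.26 and passed (edgeR adjusted p = 0.0364).

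**Figure D2:**
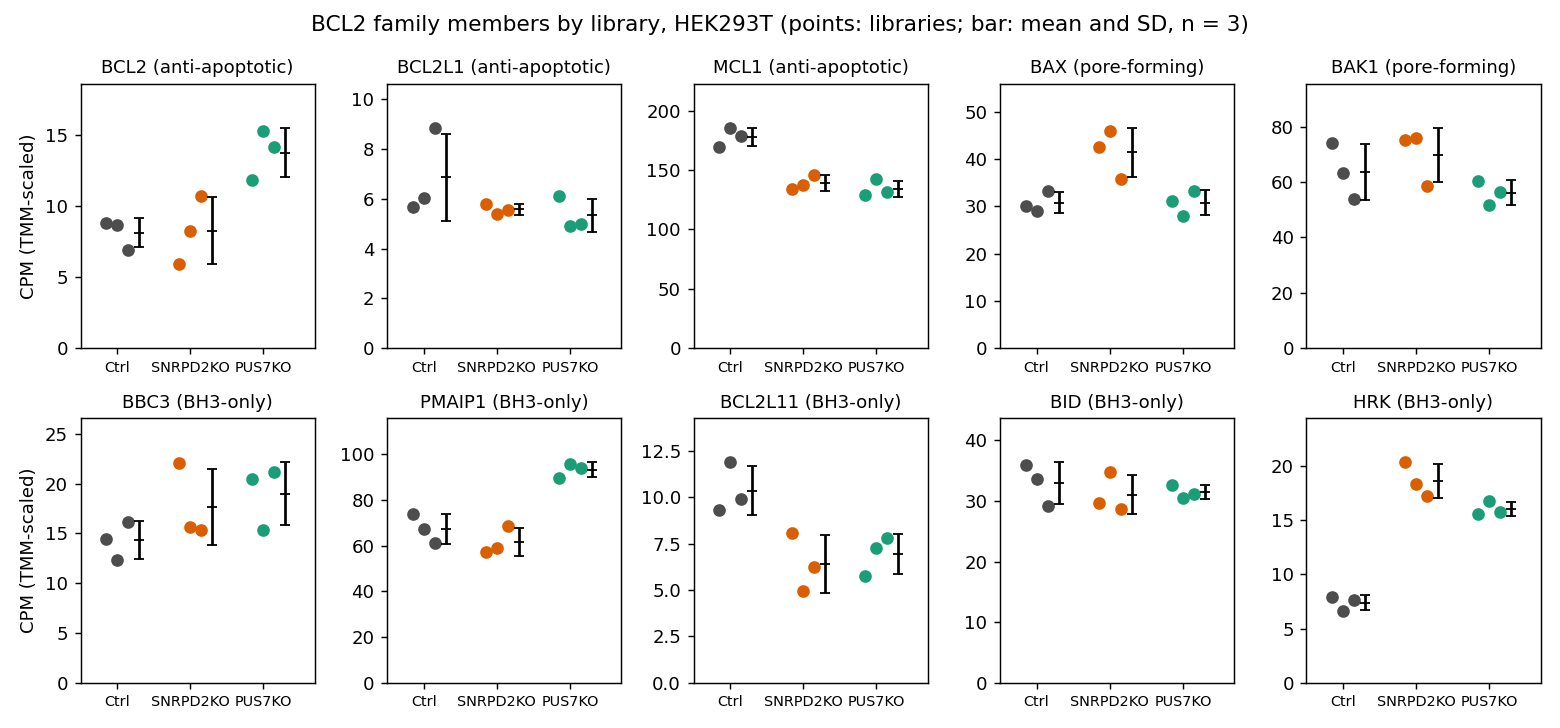
CPM of each member in the 9 HEK293T libraries (points), with mean and SD of each group of 3 (bars), 1 panel a gene and each axis starting at 0. HRK is above every Ctrl library in all 6 knockout libraries, while PMAIP1 and BCL2 are above Ctrl in the 3 PUS7KO libraries.

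Set directly against each other, SNRPD2KO had lower PMAIP1 and BCL2 and higher BAX than PUS7KO in HEK293T. These were 3 of 10 members, 1 higher and 2 lower, beside 4.77% of the genes tested (1.57% higher and 3.2% lower). The groups did not overlap in 4 members (the same 3 and HRK), beside 25.2% of genes, and the members' median was 0.01 beside 0.0079 over all genes. PMAIP1 differed by a log2 fold change of -0.60 ± 0.09 (SE; edgeR adjusted p = 0.0062), with means of 61.5 and 93.1 CPM. BCL2 differed by -0.72 ± 0.19 (edgeR adjusted p = 0.038), with means of 8.27 and 13.8 CPM. BAX differed by 0.43 ± 0.11 (edgeR adjusted p = 0.036), with means of 41.5 and 30.8 CPM. HRK was 0.21 ± 0.12 higher (edgeR adjusted p = 0.33), with a 95% interval of the difference from -0.05 to 0.47. For MCL1 the interval ran from -0.12 to 0.21 and for BCL2L11 from -0.53 to 0.31.

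Single libraries decided the number of calls between the knockouts. Without SNRPD2KO replicate 1 no member passed (PMAIP1 adjusted p = 0.0652, BAX 0.157 and BCL2 0.201, edgeR), and likewise without SNRPD2KO replicate 2 (0.0542, 0.181 and 0.150). BAX and BCL2 were both lost without PUS7KO replicate 1 (edgeR adjusted p = 0.0817 and 0.0538) or without PUS7KO replicate 2 (0.167 and 0.178), and BCL2 alone without PUS7KO replicate 3 (0.0759). With each of the 6 knockout libraries left out in turn the estimates kept their sign, over -0.96 to -0.53 for BCL2 and 0.35 to 0.53 for BAX. In all, 0 to 4 members passed with 1 library left out. PMAIP1 was the 1 member that passed with the GC trend removed or with these groups alone in the fit. Over all genes the calls ranged from 22 without SNRPD2KO replicate 1 to 1891 without SNRPD2KO replicate 3, where 758 passed with all 9 libraries.

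**Figure D3:**
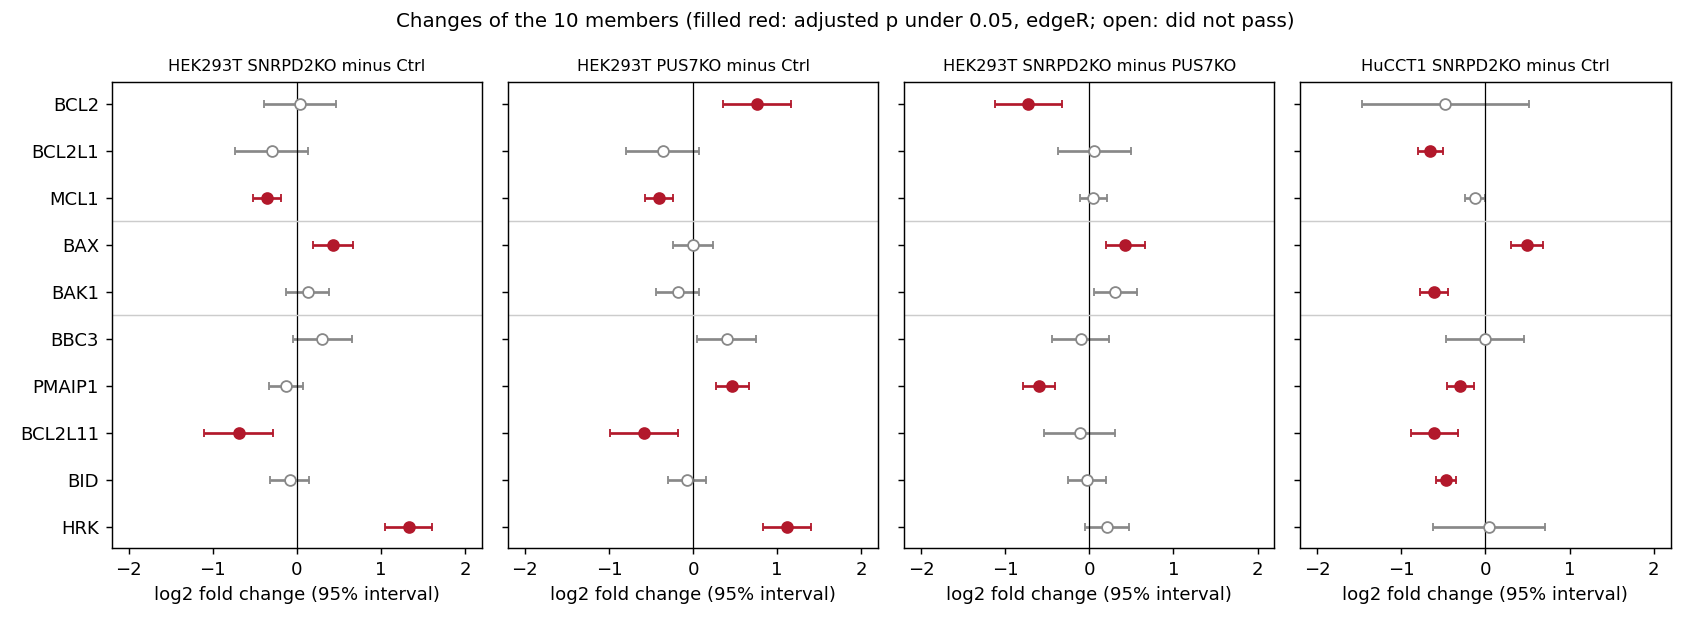
Log2 fold change (x axis) with its 95% interval for each of the 10 members (rows, grouped by role) in 4 comparisons (panels); filled red points passed an adjusted p of 0.05. HRK lies to the right of 0 in both HEK293T comparisons with Ctrl, and 5 of the 6 filled points in HuCCT1 lie to the left.

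In HuCCT1, RNA of the anti-apoptotic BCL2L1, of the effector BAK1 and of the BH3-only BID, BCL2L11 and PMAIP1 fell in the libraries labelled SNRPD2KO, and BAX rose. These are 6 of 10 members, 1 up and 5 down, beside 57.2% of the 15007 genes tested (28.8% up and 28.4% down). The share changed was near that of all genes, while the members' median was -0.38 beside 0.0025. The groups did not overlap in 7 members (these 6 and MCL1), beside 63.5% of genes.

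BCL2L1, the most abundant member in HuCCT1, had the largest change that passed. It read 792.1, 800.7 and 760.9 CPM in Ctrl and 556.9, 475.7 and 464 in SNRPD2KO. The Ctrl libraries lay close together and far above all SNRPD2KO libraries. The log2 fold change was -0.65 ± 0.07 (SE; edgeR adjusted p = 1.1e-05), to 0.636 of the Ctrl level. MCL1 read 363.9, 372.9 and 365.4 CPM in Ctrl and 323, 357.8 and 332.6 in SNRPD2KO. The MCL1 groups did not overlap, but the change of -0.12 ± 0.05 did not pass (edgeR adjusted p = 0.072). It passed without SNRPD2KO replicate 2 (-0.15, edgeR adjusted p = 0.0314) and with protein-coding genes alone (-0.14, edgeR adjusted p = 0.0327). BCL2 was near the limit of detection, with 45 counts over the 3 Ctrl libraries and 35 over SNRPD2KO. Its levels were 1.27, 1.04 and 0.599 CPM against 0.688, 0.356 and 1.08, and the log2 fold change of -0.47 ± 0.45 had a 95% interval from -1.46 to 0.51 (edgeR adjusted p = 0.39).

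The effectors moved in opposite directions in HuCCT1. BAX read 43.7, 43.6 and 44.8 CPM in Ctrl and 56.4, 58.4 and 71.3 in SNRPD2KO. BAK1 read 54.0, 53.1 and 57.5 CPM in Ctrl and 32.4, 37.1 and 38.5 in SNRPD2KO. BAX was higher and BAK1 lower in every SNRPD2KO library than in any Ctrl library. BAX rose by a log2 fold change of 0.49 ± 0.09 (SE; edgeR adjusted p = 0.00052), and BAK1 changed by -0.61 ± 0.08 (edgeR adjusted p = 4.4e-05).

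The BH3-only genes BID, BCL2L11 and PMAIP1 fell in HuCCT1. BID read 100.4, 102.3 and 97.2 CPM in Ctrl and 70.1, 72.4 and 74.5 in SNRPD2KO. The log2 fold change of BID was -0.47 ± 0.06 (SE; edgeR adjusted p = 3.1e-05), and its groups lay far apart. BCL2L11 read 19.6, 22.9 and 24.9 CPM in Ctrl and 17.3, 13.4 and 13.5 in SNRPD2KO, with the first SNRPD2KO library nearest to Ctrl. The change was -0.61 ± 0.13 (edgeR adjusted p = 0.0018), beside the fall of MIR4435-2HG on the other strand given above. PMAIP1 read 45.5, 49.3 and 47.0 CPM in Ctrl and 40.6, 39.35 and 35.5 in SNRPD2KO, again with no overlap, a change of -0.30 ± 0.07 (edgeR adjusted p = 0.0043). BBC3 read 5.34, 6.52 and 3.815 CPM in Ctrl and 4.99, 5.995 and 4.705 in SNRPD2KO. The BBC3 groups overlapped fully, with a change of -0.0058 ± 0.21 (edgeR adjusted p = 0.98). HRK was scarce in this line, at 0.953, 1.16 and 1.35 CPM in Ctrl and 1.15, 1.01 and 1.40 in SNRPD2KO, or 52 and 59 counts in all. The interval of its change, from -0.62 to 0.71 on the log2 scale, lay below the rise of 1.33 seen in HEK293T.

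**Figure D4:**
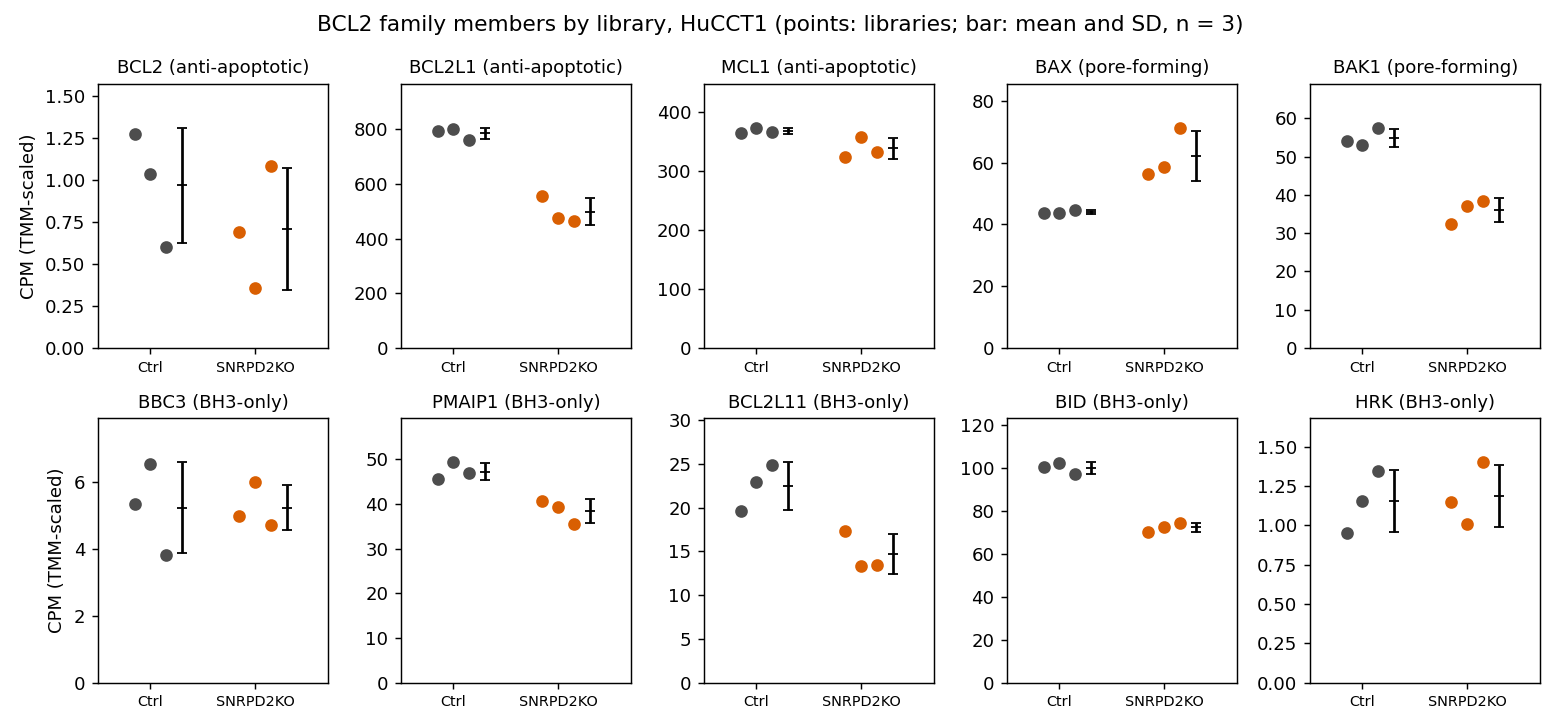
CPM of each member in the 6 HuCCT1 libraries (points), with mean and SD of each group of 3 (bars), 1 panel a gene and each axis starting at 0. BCL2L1 is at 760.9 to 800.7 CPM in Ctrl and at 464 to 556.9 CPM in SNRPD2KO, and BAX is the member that is higher in all 3 SNRPD2KO libraries.

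Whether the change in SNRPD2KO differed between the lines was tested as the interaction of line and genotype in 1 fit of 12 libraries. The change was lower in HuCCT1 for HRK, by -1.33 ± 0.29 (SE) on the log2 scale (edgeR adjusted p = 0.0014), for BAK1, by -0.78 ± 0.16 (edgeR adjusted p = 0.00068), and for BID, by -0.42 ± 0.12 (edgeR adjusted p = 0.0103). These are 3 of 10 members, all lower, beside 40.7% of the 17617 genes tested (19.8% higher and 20.9% lower), and the members' median was -0.38 beside -0.01. With the GC trend removed the difference for BID was -0.20 and did not pass (edgeR adjusted p = 0.181). BCL2L1, which fell in HuCCT1 and did not pass in HEK293T, was not shown to differ between the lines (-0.40 ± 0.19, edgeR adjusted p = 0.10), but the difference passed without HEK293T Ctrl replicate 3 (-0.63, edgeR adjusted p = 0.0075), without HuCCT1 SNRPD2KO replicate 1 (-0.49, edgeR adjusted p = 0.036) or with no filter on low counts (-0.50, edgeR adjusted p = 0.0158). For BAX the difference was 0.02 with a 95% interval from -0.28 to 0.33, and for BCL2L11 it was 0.04 with an interval from -0.46 to 0.54. BAX and BCL2L11 were the members changed in the same direction in SNRPD2KO libraries of both lines. With the GC trend removed, however, the BAX change in HEK293T was 0.12 and did not pass (edgeR adjusted p = 0.30). Over the alternatives the difference for BAX between the lines ran from -0.09 to 0.26. BCL2L11 alone fell in all 3 comparisons with Ctrl, and BBC3 alone passed in none of them with all libraries and the settings used throughout.

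Between the lines the members' levels could be set side by side only as values, since each line was counted in its own table and HEK293T gave many of its counts to small noncoding RNAs. Levels were taken as CPM of the counts on protein-coding genes alone, in HuCCT1 without the mitochondrially encoded genes. On this scale BCL2L1 stood at 11.1 ± 2.84 (SD, n = 3) in HEK293T Ctrl and at 820.0 ± 20.75 in HuCCT1 Ctrl, a ratio of 74.0. MCL1 stood at 286.9 ± 14.2 and 384 ± 5.91. BCL2 was at 13.1 ± 1.65 in HEK293T Ctrl and 1.01 ± 0.353 in HuCCT1 Ctrl, and HRK at 11.9 ± 1.04 and 1.21 ± 0.210. No test was made of these levels.

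The wider pathway was followed with 3 lists, of 14 other BCL2 family genes, 25 genes of the caspase pathway and 17 regulators of the members. Of the other family genes, 3 rose and 4 fell of 11 tested in HEK293T SNRPD2KO, 2 rose and 4 fell of 11 in PUS7KO, and 6 rose and 3 fell of 12 in HuCCT1. These are 63.6%, 54.5% and 75% of the genes tested in the list, beside 53.3%, 49.4% and 57.2% of all genes, and the list's medians were -0.26, -0.17 and 0.42, beside 0.02, 0.01 and 0.0025. BCL2L13, a mitochondrial family member and mitophagy receptor, rose by log2 fold changes of 0.92 in SNRPD2KO and 0.99 in PUS7KO (edgeR adjusted p = 5.0e-07 and 3.2e-07). The mitophagy receptor BNIP3 fell by -0.76 in HEK293T SNRPD2KO and by -0.55 in PUS7KO, where its groups overlapped (edgeR adjusted p = 0.016). BIK, a BH3-only gene, changed by -0.66 in HEK293T SNRPD2KO and by -0.47 in HuCCT1. BNIP3L, a close relative of BNIP3, fell by -0.61 in HEK293T SNRPD2KO and rose by 0.78 in HuCCT1, an interaction of 1.35 ± 0.17 (SE; edgeR adjusted p = 6.2e-06). In PUS7KO the BH3-only BMF fell by -0.48, also with overlapping groups (edgeR adjusted p = 0.02). The autophagy gene BECN1 rose by 0.34 in PUS7KO, 0.56 in HEK293T SNRPD2KO and 0.41 in HuCCT1. BOK, an effector relative of BAX, and the anti-apoptotic BCL2L2 rose by 0.80 and 0.51 in HuCCT1.

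Of the caspase pathway, 3 genes rose and 8 fell of 23 tested in HEK293T SNRPD2KO, 2 rose and 7 fell of 23 in PUS7KO, and 5 rose and 11 fell of 24 in HuCCT1. These are 47.8%, 39.1% and 66.7% of the list, beside 53.3%, 49.4% and 57.2% of all genes, and the list's medians were 0.02, -0.10 and -0.19, beside 0.02, 0.01 and 0.0025. VDAC2, a mitochondrial channel that anchors BAK, fell by log2 fold changes of -0.74, -0.70 and -1.21 in the 3 comparisons. XIAP, a direct caspase inhibitor, fell by -1.03 in HEK293T SNRPD2KO and by -0.50 in PUS7KO. Its change of 0.13 in HuCCT1 did not pass (edgeR adjusted p = 0.18). HTRA2, a mitochondrial protease that relieves XIAP, rose by 0.95 and 0.72 in HEK293T. CASP2 fell by -0.57 in PUS7KO, -0.41 in HEK293T SNRPD2KO and -0.40 in HuCCT1. In HuCCT1, CASP6 and BIRC6 rose by 1.03 and 0.68 and the death receptor adaptor FADD fell by -0.87. BIRC6 fell in HEK293T, by -0.45 in SNRPD2KO and -0.31 in PUS7KO. Its interaction of line and genotype was 1.08 ± 0.09 (SE; edgeR adjusted p = 1.0e-07).

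Of the regulators, 6 rose and 5 fell of 16 tested in HEK293T SNRPD2KO, 6 rose and 6 fell of 16 in PUS7KO, and 6 rose and 9 fell of 17 in HuCCT1. These are 68.8%, 75% and 88.2% of the list, beside 53.3%, 49.4% and 57.2% of all genes, and the list's medians were -0.0068, -0.15 and -0.24, beside 0.02, 0.01 and 0.0025. MDM2, a ubiquitin ligase, fell by -1.31 and -1.12 in HEK293T. E2F1 rose by 1.22 and 1.09 in HEK293T and by 1.06 in HuCCT1. HUWE1, a ubiquitin ligase for MCL1, rose by 0.95 and 0.96 in HEK293T and by 0.72 in HuCCT1. JUN, a transcription factor known to induce HRK and BCL2L11 in neurons, rose by 0.91 and 1.18 in HEK293T and by 0.92 in HuCCT1. In HuCCT1, USP9X, which removes ubiquitin from MCL1, rose by 1.19, and FOXO1, an activator of BCL2L11, fell by -1.49. FOXO1 also fell in HEK293T, by -0.63 in SNRPD2KO and by -0.81 in PUS7KO. In the direct comparison of SNRPD2KO with PUS7KO, the listed genes that passed were BAD (0.53, edgeR adjusted p = 0.016) and XIAP (-0.53, edgeR adjusted p = 0.032).

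**Figure D5:**
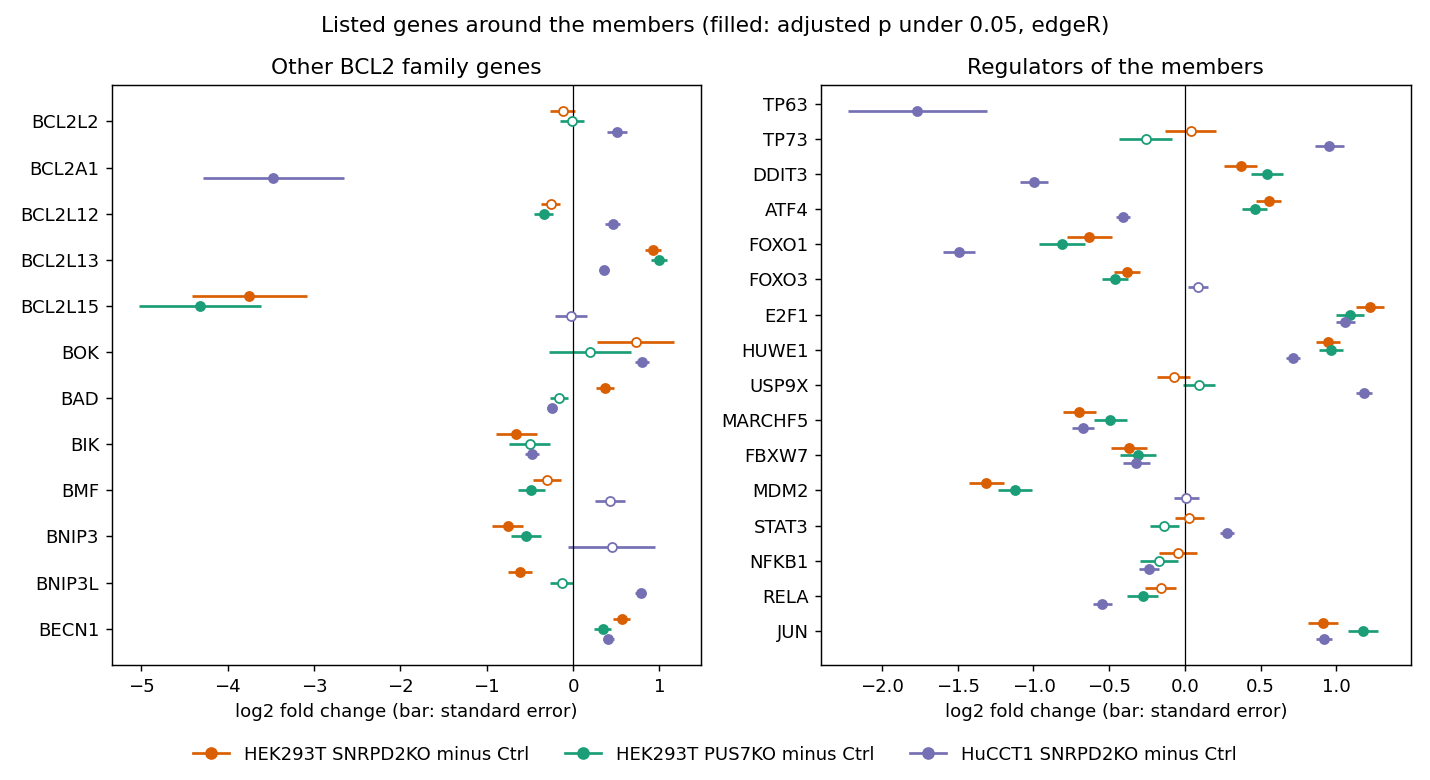
Log2 fold change with its standard error (x axis) for the other BCL2 family genes (left) and the regulators of the members (right) in the 3 comparisons with Ctrl, marked by colour; filled points passed an adjusted p of 0.05. DDIT3 and ATF4 lie to the right of 0 in both HEK293T comparisons and to the left in HuCCT1, and E2F1, HUWE1 and JUN lie to the right in all 3.

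Genes of like pattern were looked up for 1 member of each role. Over the 9 HEK293T libraries and 10711 genes, MCL1 was followed most closely by PLS3, TSC1 and STAU1 (Pearson r of log2 CPM 0.987 each), BAX by ZBTB48 (0.979), DDX56 (0.966) and H1-4 (0.965), and BBC3 by RCAN1 (0.911), ATP5ME (0.908) and SAYSD1 (0.907). Over the 6 HuCCT1 libraries and 10076 genes, MCL1 was nearest to PIGG (0.992), FTO and TXNRD1 (both 0.986), BAX to H2AC13 (0.996), NFS1 (0.993) and LSM8 (0.991), and BBC3 to FABP5P7 (0.922), THEMIS2 (0.919) and MYEF2 (0.917). No gene was among the nearest 3 of the same member in both lines. These r values are the highest among all genes compared, in libraries that share their depth and group, and are a description.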

How the data were processed

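Total RNA was depleted of ribosomal RNA and made into stranded Illumina libraries, per the labels' protocols. The authors deposited raw counts per gene, 1 table a cell line. The submitters' processing notes name cutadapt 4.2, HISAT2 2.2.1, RSEM and hg38, and their roles, the annotation release and the strand setting are not given in the sources used here. Libraries were grouped by genotype label. Genes passing edgeR's filterByExpr (minimum count 10, minimum total 15) were scaled by TMM and tested with the quasi-likelihood test of edgeR 4.0.16 (R 4.3.3), two-sided, 9 HEK293T libraries in 1 fit, 6 HuCCT1 libraries in another, and 12 libraries for the interaction. Adjusted p-values cover all genes tested, the threshold is 0.05, and the fits were tested on simulated data. Errors are SE or SD and intervals 95%. Lengths and GC came from GENCODE 29. The precision of low genes is set by the depth of 7944276 to 16795618 counts a library. No 2 libraries of the same group were identical, and replicates differed by more than counting error (chi-square per degree of freedom 3.7 to 14.8). Alternatives included DESeq2 1.42.0, limma 3.58.1 voom, other scaling and filters, a GC correction and leaving out each library. The members and lists were chosen with earlier results of these data known. The text names all members and, from each list and comparison with Ctrl, up to 4 changed genes of at least 5 CPM with the largest fold change, some of which are not reported here. The 3 genes with the highest r, of at least 5 CPM, were named as genes of like pattern. DDIT3 and ATF4 in both lines, HUWE1 and JUN in HuCCT1 and BECN1 outside PUS7KO were named after their values were seen. So were CASP2 outside PUS7KO, XIAP outside HEK293T SNRPD2KO, and FOXO1 and BIRC6 in HEK293T.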

Additional observations from a re-analysis of the deposited data

Results flagged for a closer look

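The change in the libraries labelled SNRPD2KO differed between the cell lines for 3 members, by the interaction of line and genotype in 1 edgeR fit. HRK differed by -1.33 on the log2 scale, with a rise of 1.33 in HEK293T and a change of 0.04 in HuCCT1, where it held 52 counts in Ctrl and 59 in SNRPD2KO. BAK1 differed by -0.78, with 0.13 in HEK293T and -0.61 in HuCCT1. BID differed by -0.42, with -0.09 in HEK293T and -0.47 in HuCCT1. With the GC trend removed the difference for BID was -0.20 and did not pass (edgeR adjusted p = 0.181). A difference between the lines was found for 40.7% of all genes tested.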

How the results depend on the processing

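Of 740 values of single members under the alternatives, 669 kept their direction and their side of the threshold, and none of the 36 reversals was among the 21 changes that passed with all libraries, of which 15 passed in every alternative run. Between SNRPD2KO and PUS7KO in HEK293T, 3 members passed, but 1 at an adjusted p of 0.01, 1 with the GC trend removed, 1 with these groups alone in the fit, and 0 to 4 with 1 library left out. Over all genes that comparison gave 758 calls, against 177 with the GC trend removed, 464 with these groups alone and 1292 with no filter on low counts. Same-numbered libraries did not deviate together (correlations -0.086 to 0.0436 in HEK293T and -0.0375 to -0.0106 in HuCCT1), so replicate numbers do not pair them. Across numbers the correlations were -0.0889 to 0.127 in HEK293T and -0.0274 to 0.0414 in HuCCT1. The highest was of SNRPD2KO replicate 3 with PUS7KO replicate 2. These had the smallest share of small noncoding RNAs in their groups (30.0% and 28.2%), and the part of this was not tested. With the replicate number as a block, BAX no longer passed between SNRPD2KO and PUS7KO (0.43, edgeR adjusted p = 0.0569). BBC3 passed in PUS7KO against Ctrl with the block (edgeR adjusted p = 0.0314) and with 2 groups alone (edgeR adjusted p = 0.0371). No other member's call changed with the block. Some values that had not passed changed sign. With the GC trend removed, BAK1 and BBC3 in HEK293T SNRPD2KO went from 0.13 and 0.30 to -0.14 and -0.063, and BCL2L1 between the knockouts at -0.056. With no filter on low counts, BID and BAX in PUS7KO were at 0.018 and 0.083, BBC3 in HuCCT1 at 0.012, and the interactions of BAX and BCL2L11 at -0.077 and -0.061. BAX in PUS7KO was at 0.000565 with 2 groups alone. BBC3 in HuCCT1 was at 0.0044 by limma voom and 0.014 with the replicate block. The interaction of BAX was -0.0046 with DESeq2's size factors and -0.0048 by DESeq2. With 1 library left out, the ranges that crossed 0 were -0.18 to 0.24 for BCL2 in HEK293T SNRPD2KO, -0.041 to 0.078 for BAX in PUS7KO, -0.10 to 0.041, -0.29 to 0.037 and -0.28 to 0.0024 for BID, BCL2L11 and BBC3 between the knockouts, -0.18 to 0.18 and -0.079 to 0.16 for BBC3 and HRK in HuCCT1, and -0.13 to 0.19 and -0.090 to 0.082 for the interactions of BCL2L11 and BAX. Unless the setting itself leaves out libraries, the cause was not tested. Counts were fewest for BCL2 and HRK in HuCCT1, with 35 to 59 counts a group.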

Other observations

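BCL2L1 RNA took a different place in the 2 cell lines before any knockout. In protein-coding CPM of the Ctrl libraries, in HuCCT1 without mitochondrially encoded genes, it ranked 143 of 16541 genes in HuCCT1 and 9147 of 20042 in HEK293T. The log2 ratio of HuCCT1 to HEK293T was 6.197 for BCL2L1, and among 11355 genes compared 275 had a ratio as high. The 12 expressed genes nearest to it within 1 Mb had a median log2 ratio of 0.58, from -0.92 (MCTS2) to 3.03 (COMMD7), beside a median of -0.55 over all genes compared. This was looked at after the level of BCL2L1 was seen, and no test was made.

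BCL2L15, a family member of low level, stood at a mean of 1.497 CPM in HEK293T Ctrl and at 0.0936 CPM in SNRPD2KO and 0.0665 CPM in PUS7KO, which are below the level of 3 counts in a library. Both knockouts are set against the same Ctrl libraries, which had counts on 29551 to 30073 genes, more than either knockout. The part of this in the lower values was not tested. In HuCCT1 BCL2L15 stood at 5.37 CPM in Ctrl and 5.28 CPM in SNRPD2KO. It was named after its values were seen.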
